A study of Saccharomyces cerevisiae with 2 samples.

Results

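Genes for the synthesis and uptake of 5 vitamins were followed in the carotenoid-producing *Saccharomyces cerevisiae* strain BL03-D-4 between 2 media. The members were the genes whose symbol is THI, SNZ, SNO, BIO, BNA or RIB followed by a number, together with the transporter genes VHT1, TNA1 and TPN1. The name column of the table was filled for only 2265 of its 7126 rows and gave 8 of these genes, so symbols were looked up by systematic name in the RefSeq annotation, which gave 43. They comprised 16 genes for thiamine, 7 for vitamin B6, 5 for biotin, 8 for NAD and 6 for riboflavin. The remaining gene, SNO4, was caught by its name alone, since it belongs to the Hsp31 family of stress proteins and not to the SNO glutaminases.

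The RNA-seq experiment had 2 libraries, 1 from a culture in YPD2 medium and 1 from a culture in YPM medium, each collected after 24 h at 30 °C, and asked how the medium changes gene expression in a strain whose carotenoid yield depends on it. BL03-D-4 derives from BY4742. In both cultures GAL80 was replaced by CrtB, CrtI and CrtE, a set of carotenoid genes that each carry the HSP26 promoter, a truncated HMG-CoA reductase gene (tHMGR) with the CIT1 promoter was integrated at a second locus, and ALD6 was deleted. The sample label of the YPD2 culture reads YPD. YPM (modified YPD) contained yeast extract of another maker and lot than YPD2, added phosphate and sulfate salts of potassium, magnesium and sodium, and a trace metal solution. Yeast extract is itself a source of vitamins, and its lot, the salts and the metals cannot be told apart here because they changed together. The paper places both cultures in stationary phase at about 24 h but reports clearly different growth curves in these media. A difference in growth stage was not tested. Every statement is about this 1 engineered strain at this 1 time.

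Expression was given as TPM, the abundance of a gene's transcripts relative to the whole library, corrected for transcript length. TPM keeps no read numbers, so the depth behind a value is unknown. Each medium had 1 library, so differences were not checked against replicates and no test was possible. Differences are log2 ratios, positive where the YPM value was higher. They were taken with 1 TPM added to both values, which makes the difference of low genes look smaller, while folds are plain ratios of TPM. Genes averaging 1 TPM or more were compared and called changed when the log2 ratio reached 1 upward or downward, and "rose" and "fell" are used for these genes alone. Each value is an average over a culture, so a change in every cell and a change in some cells cannot be told apart. GAL80 and ALD6 were listed at 0 in both libraries. CrtI had 15061 TPM in YPM and 11513 TPM in YPD2.

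Vitamins are the precursors of coenzymes. Thiamine diphosphate serves decarboxylases and transketolase, pyridoxal phosphate serves aminotransferases, biotin is bound covalently to carboxylases, and NAD and the flavins carry electrons. Yeast can take up several vitamins and can also make several of them, and many of its synthesis genes are known to be repressed when the vitamin is supplied. The pathways touch one another, since the enzymes of the THI5 family build the pyrimidine moiety of thiamine from pyridoxal phosphate and a histidine of their own chain.

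Several members are near-identical copies close to chromosome ends, and their sequences are shown first because they decide which TPM values can be read gene by gene. The coding sequences of THI5, THI11, THI12 and THI13 each have 1023 bases in the RefSeq R64 assembly and differ at 27 positions among the 4 genes. Bases 409 to 468 of each coding sequence follow, 5′ to 3′ on the strand of the gene, with the 6 positions that differ in this stretch in capitals. They lie at chrVI:13337-13396 (plus strand), chrX:729129-729188 (minus strand), chrXIV:15240-15299 (plus strand) and chrIV:16612-16671 (plus strand).
THI5: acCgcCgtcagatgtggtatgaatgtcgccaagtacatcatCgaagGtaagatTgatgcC
THI11: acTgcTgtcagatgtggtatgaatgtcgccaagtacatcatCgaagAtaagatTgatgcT
THI12: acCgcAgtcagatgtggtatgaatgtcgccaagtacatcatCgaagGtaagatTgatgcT
THI13: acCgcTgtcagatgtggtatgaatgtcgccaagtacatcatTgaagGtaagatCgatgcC
Pairs of these genes differed at 7 to 23 bases and their proteins at 1 to 3 of 340 residues. Only 1 base was found in THI5 and in no other copy, against 4 in THI11, 5 in THI12 and 11 in THI13. Of all 50-base words of the THI5 coding sequence, 85.0% also occurred elsewhere in the genome, and the share was 79.0% for THI11, 70.6% for THI12 and 60.0% for THI13.

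The same holds for the later copies of the vitamin B6 genes. SNZ2 and SNZ3 have 897 coding bases and differ at 6 of them, while SNO2 and SNO3 have 669 and differ at 2. The stretches below hold 4 of the 6 SNZ differences and both SNO differences in capitals, 5′ to 3′ on the strand of the gene, at chrXIV:14014-14073 (plus strand), chrVI:12110-12169 (plus strand), chrXIV:12551-12610 (minus strand) and chrVI:10644-10703 (minus strand).
SNZ2: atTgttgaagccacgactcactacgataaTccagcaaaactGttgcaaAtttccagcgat
SNZ3: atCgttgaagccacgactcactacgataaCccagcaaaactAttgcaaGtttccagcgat
SNO2: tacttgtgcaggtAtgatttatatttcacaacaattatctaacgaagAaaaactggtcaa
SNO3: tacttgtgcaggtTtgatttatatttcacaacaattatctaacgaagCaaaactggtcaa
Of the 50-base words, 77.1% of those in SNZ2 and SNZ3 and 86.5% of those in SNO2 and SNO3 occurred elsewhere. SNO4 shared 77.4% of its words, THI72 4.68% and THI7 1.60%, and no other member shared any. Values of these copies are therefore uncertain one by one, because RSEM divides reads that match several genes by estimation, and the sums are given as well. SNZ1 stands apart from its relatives, with 79.7% identical residues to SNZ2 and no shared word, so reads of copies are unlikely in its value. The read length and the reference behind the TPM are not given, so this was not tested.

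All 43 members passed the minimum of 1 TPM and none was listed at 0, the lowest value being 9.10 TPM for THI72 in YPD2. SNZ1 and THI4 rose in YPM and BIO2 fell. Over all 6350 rows compared, 3.28% were higher past the limit, 5.15% were lower and 8.43% went in either direction, against 4.65%, 2.33% and 6.98% of the members. The share of changed vitamin genes was thus near that of all rows, and what follows describes single genes rather than a shift of the whole group. The median log2 ratio was 0.02 over the members and -0.13 over all rows, and 27 of the 43 members lay above the latter. All rows divided into 208 higher and 327 lower, or 256 and 255 after a rescaling that put the median gene at a log2 ratio of 0. A lower limit of 1.5-fold, chosen after the values were seen, gave 4 members on each side. Higher in YPM were SNZ1, THI4, BNA3 and THI12, and lower were BIO2, BIO4, RIB4 and SNO2. THI12 and SNO2 each belong to a set of near-identical copies. The summed THI5 family had a log2 ratio of 0.06, inside that limit, and SNO2 with SNO3 had -0.59, just past it. Over all rows that limit was passed upward by 7.87% and downward by 14.9%. The even split of the members depended on the copies and on the scaling. With the median gene at a log2 ratio of 0, 7 members were higher, with BNA4, TPN1 and SNO1 added, and 3 were lower, without SNO2, against 691 and 672 of all rows.

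**Figure D1:**
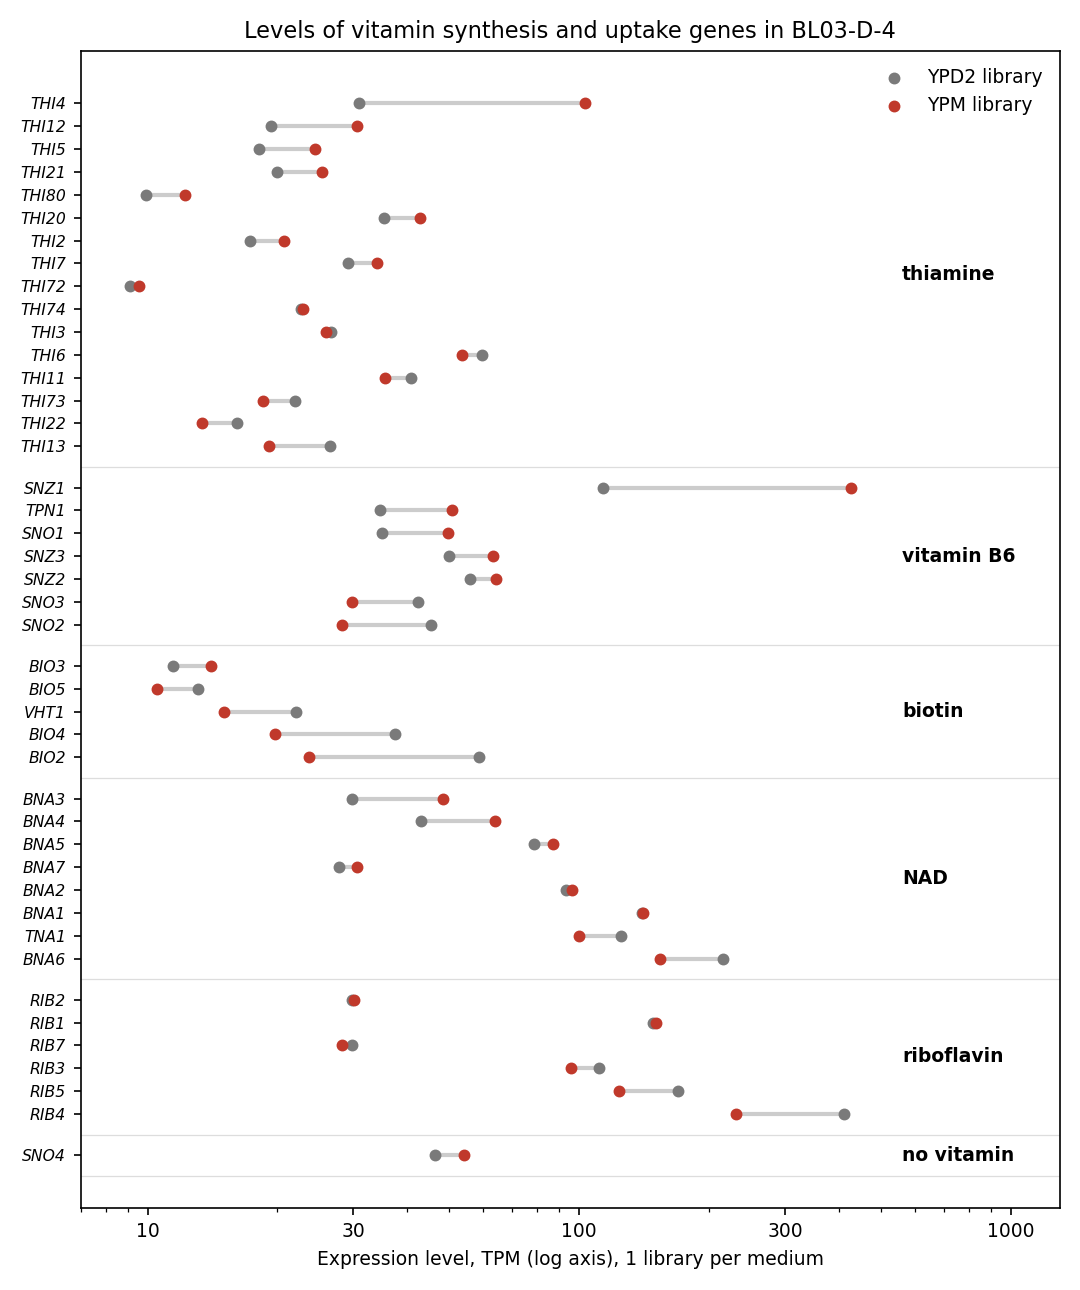
Expression level in TPM on a log axis for each of the 43 genes, grouped by vitamin and ordered by log2 ratio, with the YPD2 library in grey, the YPM library in red and a bar joining the values of a gene. SNZ1 at 113 and 426 TPM, THI4 at 30.9 and 103 TPM and BIO2 at 58.6 and 23.7 TPM (YPD2, then YPM) have the widest gaps.

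Among the thiamine genes, THI4 rose in YPM, while the summed level of the THI5 family was close to equal in both libraries. THI4 encodes the synthase of the thiazole moiety, an enzyme that gives up a sulfur atom of its own chain and works once. It had 103 TPM in YPM and 30.9 TPM in YPD2, which is 3.34-fold higher (log2 ratio 1.71), at rank 89 from the highest of the 6350 rows. THI4 lies at chrVII:780399-781379 on the plus strand, overlaps no other annotated gene and shares no 50-base word with another place in R64. Reads of copies are therefore unlikely in its value.

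The THI5 family makes the pyrimidine moiety. The 4 genes summed to 110 TPM in YPM and 105 TPM in YPD2, a ratio of 1.05 (log2 ratio 0.06). Read one by one, they went both ways. THI12 had 30.5 TPM in YPM and 19.3 TPM in YPD2 (log2 ratio 0.63), and THI5 had 24.5 and 18.1 TPM (0.41). THI11 had 35.5 TPM in YPM against 40.9 TPM in YPD2 (-0.20), and THI13 had 19.2 and 26.5 TPM (-0.45). The spread over the copies, from -0.45 to 0.63, was thus far wider than the log2 ratio of their sum. In the stacked plot of the copies, mainly the estimated division among them differed. That division is an estimate by RSEM from 1 library per medium, and whether the copies themselves differed was not tested.

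**Figure D2:**
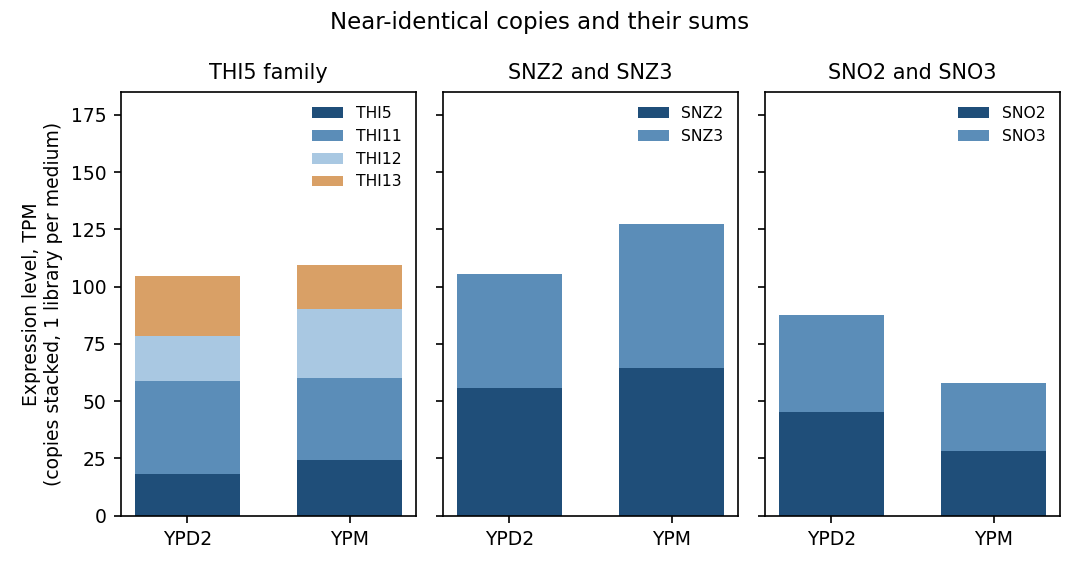
Summed expression level in TPM of near-identical copies in each library, with each copy as a segment of a stacked bar that starts at 0. The THI5 family reaches 105 (YPD2) and 110 (YPM) TPM, SNZ2 with SNZ3 at 106 and 127 TPM, and SNO2 with SNO3 at 87.7 and 58.1 TPM.

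The enzymes that join and activate the moieties stayed within 1.5-fold. Over all rows compared, 22.8% were past 1.5-fold in either direction. THI20, a kinase of the pyrimidine moiety, had 42.7 TPM in YPM and 35.2 TPM in YPD2 (log2 ratio 0.27). Its paralog THI21, which shares 86.0% of its residues, had 25.4 and 19.9 TPM (0.34). THI22, a related gene whose product is not needed for thiamine synthesis, had 13.4 and 16.1 TPM (-0.25). These 3 genes share no 50-base word in R64, so mixing of their values is unlikely, though this was not tested. THI6, whose product couples them into thiamine phosphate, had 53.5 TPM in YPM and 59.4 TPM in YPD2 (-0.15). THI80, the pyrophosphokinase that forms the coenzyme, was among the lowest members at 12.2 and 9.89 TPM (0.28).

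Regulators and carriers also stayed within 1.5-fold, as did 35 of the 43 members. THI2, an activator of the thiamine genes, had 20.7 TPM in YPM and 17.3 TPM in YPD2 (log2 ratio 0.25), and THI3, which acts with it, had 25.9 and 26.7 TPM (-0.04). THI7, the thiamine transporter of the plasma membrane, had 34.0 and 29.1 TPM (0.22). Its paralog THI72 had 9.54 and 9.10 TPM (0.06). THI73, a putative permease of the plasma membrane, had 18.6 TPM in YPM against 21.9 TPM in YPD2 (-0.23), and THI74, a mitochondrial carrier, 22.9 and 22.7 TPM (0.01). So the rise of THI4 was not shared by any other thiamine gene past the limit. The median log2 ratio of the 16 thiamine genes was 0.14, with 10 above 0 and 6 below.

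Other genes of thiamine metabolism were compared for context. None of 5 further genes of uptake and regulation passed the limit, from PHO3, an acid phosphatase that thiamine represses, with 11.1 TPM in YPM and 16.1 TPM in YPD2 (log2 ratio -0.49) to PET18 at 28.7 and 21.3 TPM (0.42). Of 10 genes for enzymes that use thiamine diphosphate, 2 rose and 1 fell, and their median log2 ratio was -0.15. Over all rows compared, 3.28% rose and 5.15% fell. PDC1, the main pyruvate decarboxylase of fermentation, had 1901 TPM in YPM and 869 TPM in YPD2 (1.13). PDC6, a minor isoform, had 186 and 62.2 TPM (1.57). TKL1, the main transketolase of the pentose phosphate pathway, had 91.0 TPM in YPM and 231 TPM in YPD2 (-1.33). The coenzyme's users thus went in both directions in these libraries.

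Vitamin B6 had the member with the largest difference. SNZ1 encodes the synthase subunit that assembles pyridoxal phosphate, and SNO1 beside it encodes the glutaminase that supplies ammonia. SNZ1 had 426 TPM in YPM and 113 TPM in YPD2, which is 3.76-fold higher (log2 ratio 1.90), at rank 70 from the highest of all rows compared. It was also the most abundant of the 43 members in YPM, where RIB4 came next at 230 TPM. SNO1 had 49.6 TPM in YPM and 34.9 TPM in YPD2 (1.42-fold, log2 ratio 0.49). The level of SNZ1 was therefore 8.59 times that of SNO1 in YPM and 3.25 times in YPD2. Both proteins are parts of 1 complex.

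SNO1 and SNZ1 are transcribed away from each other on chromosome XIII, with 448 bases between their coding sequences. This shared upstream region was searched on both strands for TGACTC, the core of the site of Gcn4, an activator of amino acid synthesis genes that is known to act on SNZ1 and SNO1. All 3 matches lie in the following 156 bases, chrXIII:458091-458246, printed on the plus strand with the matches in capitals.
SNO1-SNZ1 region: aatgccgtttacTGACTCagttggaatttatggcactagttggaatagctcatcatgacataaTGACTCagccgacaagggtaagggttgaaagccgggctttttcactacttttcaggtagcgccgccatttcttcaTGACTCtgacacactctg
The matches end 300, 249 and 174 bases before the start codon of SNZ1. In the 500 bases upstream of the start codon, 13 of the 43 members (30.2%) had at least 1 such match, against 759 of 6019 genes (12.6%). Besides SNZ1 and SNO1 they were BIO2, BIO3, BIO5, VHT1, BNA1, BNA2, BNA4, BNA6, RIB1, THI2 and TPN1. SNZ1 and SNO1 were counted on the same sites, and the matches of BIO3 and BIO5 lie inside the coding sequence of BIO4. Counting only matches outside protein-coding genes left 11 members (25.6%) and 562 of 6019 genes (9.34%). BIO2, which fell, and SNZ1, which rose, were both among them, and THI4 was not. A match of letters is a description of the sequence and says nothing about binding in these cultures.

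The later copies differed much less, and their synthase and glutaminase genes stood on opposite sides of 0. SNZ2 and SNZ3 summed to 127 TPM in YPM and 106 TPM in YPD2 (ratio 1.21, log2 ratio 0.27), with 64.3 and 55.9 TPM for SNZ2 and 63.1 and 49.8 TPM for SNZ3. SNO2 and SNO3 summed to 58.1 TPM in YPM and 87.7 TPM in YPD2 (ratio 0.66, log2 ratio -0.59), with 28.3 and 45.4 TPM for SNO2 and 29.8 and 42.3 TPM for SNO3. In both gene pairs the copies gave similar single values, with log2 ratios of 0.20 and 0.34 for SNZ2 and SNZ3 and of -0.66 and -0.49 for SNO2 and SNO3. The synthase gene was higher relative to its glutaminase neighbour in YPM at all 3 loci. The level of SNZ2 was 2.27 times that of SNO2 in YPM and 1.23 times in YPD2, and the level of SNZ3 was 2.12 and 1.18 times that of SNO3. The last pair of loci share nearly all of their sequence and are not separate measurements. TPN1, the pyridoxine transporter of the plasma membrane, had 50.8 TPM in YPM and 34.6 TPM in YPD2 (1.47-fold, log2 ratio 0.54).

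**Figure D3:**
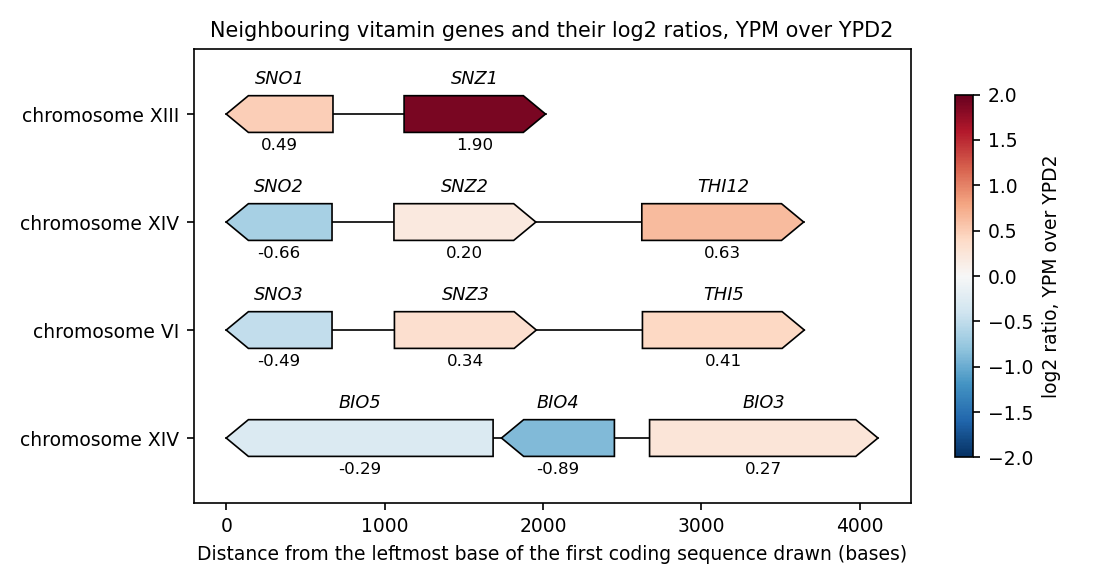
Neighbouring vitamin genes in R64, drawn to scale as arrows in the direction of transcription against the distance in bases from the leftmost coding base, coloured and numbered by log2 ratio. Each cluster holds neighbours that differ, as SNO1 at 0.49 and SNZ1 at 1.90, or BIO4 at -0.89 and BIO3 at 0.27. SNO2 at -0.66 and SNZ2 at 0.20 differ as well, as do SNO3 at -0.49 and SNZ3 at 0.34. The neighbours SNZ3 and THI5, at 0.34 and 0.41, are close.

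The order of genes links vitamin B6 and thiamine. SNZ2 is followed by THI12 on chromosome XIV after 668 bases and SNZ3 by THI5 on chromosome VI after 669 bases, each in the same direction, with the SNO gene on the other side. THI12 was 0.48 times as abundant as SNZ2 in YPM and 0.35 times in YPD2, and THI5 was 0.39 and 0.36 times as abundant as SNZ3. Over the 7 vitamin B6 genes the median log2 ratio was 0.34, and their levels summed to 712 TPM in YPM and 376 TPM in YPD2, a difference that lies mostly in SNZ1. The 3 genes for other steps, listed separately, stayed within the limit, which 8.43% of all rows compared passed in either direction. The lowest was PDX3, the oxidase that forms pyridoxal phosphate, with 217 TPM in YPM and 269 TPM in YPD2 (-0.31). The highest was BUD16, a putative pyridoxal kinase, at 24.5 and 20.7 TPM (0.23).

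The biotin genes had the lowest median log2 ratio of the 5 vitamins, -0.52, with 4 of 5 genes below 0. BIO2 encodes biotin synthase, the iron-sulfur enzyme of the last step. It had 23.7 TPM in YPM and 58.6 TPM in YPD2, which is 2.47-fold lower with a log2 ratio of -1.27, at rank 199 from the lowest of all rows compared. BIO2 lies at chrVII:1063813-1064940 on the minus strand and shares no 50-base word with another place. BIO4, the dethiobiotin synthetase of the step before, had 19.8 TPM in YPM and 37.4 TPM in YPD2 (1.89-fold lower, -0.89), short of the limit. BIO3, the aminotransferase before that, had 14.0 TPM in YPM and 11.5 TPM in YPD2 (0.27). The synthesis genes thus did not move as 1 unit, and the level of BIO2 was 1.69 times that of BIO3 in YPM and 5.10 times in YPD2.

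Both biotin carriers were lower in YPM without passing the limit. VHT1, the biotin transporter of the plasma membrane, had 15.1 TPM in YPM and 22.1 TPM in YPD2 (log2 ratio -0.52). BIO5, which imports biotin precursors, had 10.5 and 13.1 TPM (-0.29). BIO5, BIO4 and BIO3 are neighbours on chromosome XIV, with 52 bases between BIO5 and BIO4 and 221 between BIO4 and BIO3, and BIO3 was 0.71 times as abundant as BIO4 in YPM and 0.31 times in YPD2.

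Vhr1 is the known regulator of biotin-responsive transcription in yeast. A search of the 500 upstream bases on both strands for its biotin-response element found it in VHT1 and BIO5 alone among the 43 members, and in 20 of 6019 genes (0.33%). Both matches are printed in capitals with 12 bases on either side, 5′ to 3′ on the minus strand, the strand of both genes, at chrVII:620094-620135 and chrXIV:733557-733598.
VHT1: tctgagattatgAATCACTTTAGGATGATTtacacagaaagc
BIO5: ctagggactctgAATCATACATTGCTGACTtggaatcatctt
The first match begins 265 bases before the start codon of VHT1. The match of BIO5 lies inside the coding sequence of BIO4, and BIO2, the biotin gene that fell, had none in this window. VHR1 itself had 60.6 TPM in YPM and 68.5 TPM in YPD2 (log2 ratio -0.18), and its paralog VHR2 rose and had 39.9 TPM in YPM and 16.9 TPM in YPD2 (1.19). BPL1, the ligase that attaches biotin, had 17.3 TPM in YPM and 25.8 TPM in YPD2 (-0.55).

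All 6 genes for biotin-bearing proteins were also lower in YPM, and their median log2 ratio was -0.47. None passed the limit of 1, which 5.15% of all rows compared passed downward. They ran from DUR1,2, the urea amidolyase, with 14.8 TPM in YPM and 24.4 TPM in YPD2 (-0.69) to HFA1, the mitochondrial acetyl-CoA carboxylase, at 12.7 and 14.3 TPM (-0.15). More rows were below 0 than above it in the whole table, 4004 against 2334, so a negative sign alone was common.

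**Figure D4:**
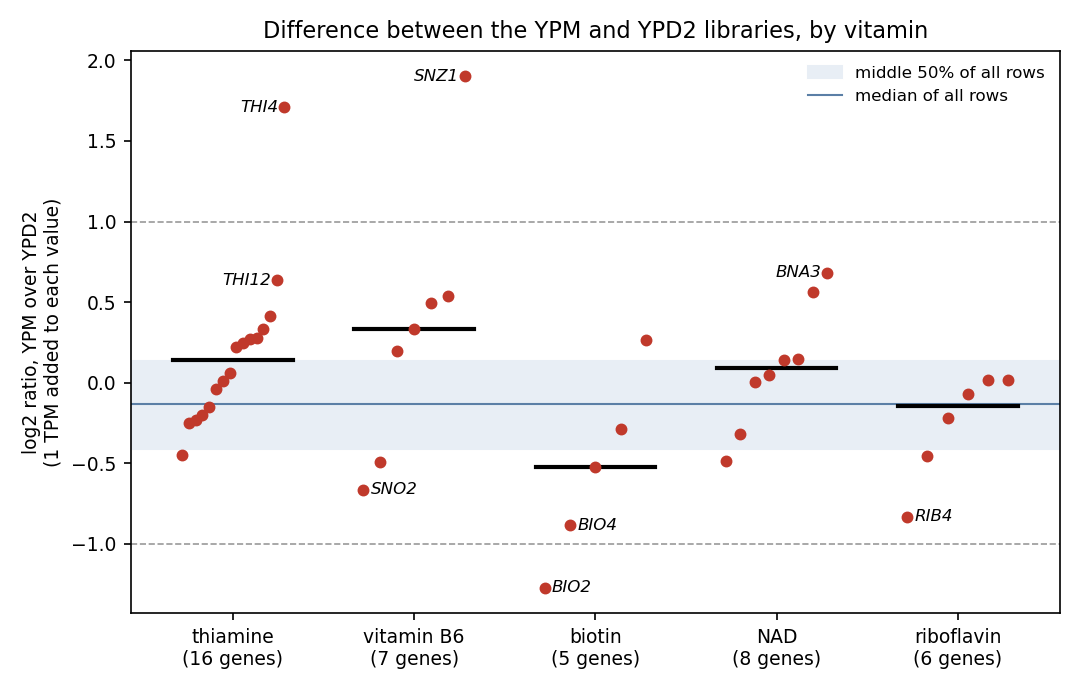
Log2 ratio (YPM over YPD2, with 1 TPM added to both) of each gene as a red point by vitamin, with the median of each vitamin as a black bar. Dashed lines mark the limit of 1 in either direction, the blue line and band mark the median (-0.13) and the middle of all rows between their quartiles (-0.41 to 0.13), and the genes past 1.5-fold are named, with SNZ1, THI4 and BIO2 alone outside the dashed lines.

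The NAD genes went both ways between the libraries, from -0.49 for BNA6 to 0.68 for BNA3, with a median log2 ratio of 0.09 and sums of 721 TPM in YPM and 753 TPM in YPD2. They make NAD from tryptophan by way of kynurenine. BNA2, the dioxygenase that opens the ring of tryptophan, had 96.1 TPM in YPM and 93.1 TPM in YPD2 (0.05). It overlaps YJR079W by 17 bases, and it is the only member that overlaps another annotated gene. BNA7, the formamidase of the next step, had 30.6 and 27.7 TPM (0.14). BNA4, the kynurenine monooxygenase, had 64.0 TPM in YPM and 42.9 TPM in YPD2 (1.49-fold, 0.57).

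The later steps had lower ratios than BNA4, and so had the earlier steps BNA2 (log2 ratio 0.05) and BNA7 (0.14). BNA5, the kynureninase, had 87.1 TPM in YPM and 78.7 TPM in YPD2 (log2 ratio 0.15). BNA1, the hydroxyanthranilate dioxygenase, was at 140 TPM in both, with a log2 ratio of 0.00. BNA6, the phosphoribosyltransferase at which the pathway meets the rest of NAD synthesis, had 154 TPM in YPM and 216 TPM in YPD2 (-0.49). No step passed the limit in either direction, against 8.43% of all rows compared. BNA3, an aminotransferase that draws kynurenine off to kynurenic acid, had the highest ratio of the 8, with 48.5 TPM in YPM and 29.8 TPM in YPD2 (1.62-fold, 0.68). TNA1, the nicotinic acid permease, had 100.1 and 125 TPM (-0.32).

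Of 18 other genes of NAD salvage, transport, phosphorylation and control, 1 passed the limit, against 8.43% of all rows compared in either direction. YEF1, a kinase that makes NADP or NADPH, fell and had 27.2 TPM in YPM and 77.6 TPM in YPD2 (log2 ratio -1.48). The highest ratio of the list was 0.68 for URH1, a nucleosidase that also cleaves nicotinamide riboside, with 19.6 TPM in YPM and 11.9 TPM in YPD2. The list's median was 0.02.

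The riboflavin genes gave their largest difference at the last but one step. RIB4, the lumazine synthase, had 230 TPM in YPM and 410 TPM in YPD2, which is 1.78-fold lower (log2 ratio -0.83), short of the limit. It was the most abundant member in YPD2. RIB5, the riboflavin synthase that uses its product, had 124 TPM in YPM and 170 TPM in YPD2 (-0.46). RIB3, which makes the other substrate of lumazine synthase, had 95.6 and 111 TPM (-0.22).

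The branch from GTP was nearly the same in both libraries. RIB1, the GTP cyclohydrolase, had 150 TPM in YPM and 149 TPM in YPD2 (log2 ratio 0.02). RIB7, the reductase, had 28.3 and 29.8 TPM (-0.07), and RIB2, the deaminase, had 30.1 and 29.7 TPM (0.02). Levels within the pathway therefore ranged more widely than the difference between media, with RIB4 at 410 TPM and RIB2 and RIB7 near 30 TPM in the same YPD2 library. The 6 genes had a median log2 ratio of -0.15 and summed to 658 TPM in YPM and 900 TPM in YPD2. None of 5 further flavin genes passed the limit, against 8.43% of all rows compared in either direction. FMN1, the riboflavin kinase, had 96.1 TPM in YPM against 64.6 TPM in YPD2 (0.57), and PUT3, a regulator of the riboflavin transporter gene MCH5, had 32.2 and 40.7 TPM (-0.33).

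By role, 8 members were grouped as transport genes, none of them for riboflavin, and these data do not show what THI73 and THI74 carry. The 8 log2 ratios ran from -0.52 for VHT1 to 0.54 for TPN1, with 4 on each side of 0. None was past 1.5-fold, except TPN1 at 0.67 when the median gene was set to 0. Most rows were not past it either, since 22.8% of all rows compared were, counting both directions. All 3 members past the limit were synthesis genes, which also make up most of the members. Lists for a pair of vitamins outside the rule gave no gene past the limit, which 8.43% of all rows compared passed in either direction. The 10 pantothenate and coenzyme A genes had a median log2 ratio of 0.07, from FEN2, the pantothenate transporter, with 33.5 TPM in YPM and 48.6 TPM in YPD2 (-0.53) to CAB4, a subunit of the coenzyme A-synthesizing complex, at 68.0 and 47.9 TPM (0.49). The 7 folate genes had a median of -0.03, from FOL1, a multifunctional enzyme of folate synthesis, at 21.2 and 34.8 TPM (-0.69) to ABZ1, the aminodeoxychorismate synthase, at 36.2 and 26.1 TPM (0.46). SNO4, the stress protein gene caught by its name, had 54.2 TPM in YPM and 46.4 TPM in YPD2 (0.22), with most of its sequence shared with other genes.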

How the data were processed

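RNA of BL03-D-4 was isolated after 24 h, and polyA-selected libraries were sequenced, 1 per medium. The authors estimated expression with RSEM and deposited TPM values per gene. Per the labels, HISAT2 and StringTie were also used. Versions, genome build, annotation, read length and use of strand are not given in the sources used here. The header MYPD was read as modified YPD, which the labels abbreviate YPM. The table held 7126 rows with a value, and 4 lines were empty in the copy used. Summed TPM was 925918 in YPM and 937091 in YPD2, and 674 rows were at 0 in both. The 20 most abundant rows held 18.4% and 16.9% of the total.

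Symbols came from RefSeq R64, which matched 6044 rows by systematic name, and all coordinates and sequences describe R64, which can differ from the reference behind the TPM. Log2 ratios were computed after adding 1 TPM for the 6350 rows averaging 1 TPM or more, and the limit was a log2 ratio of 1. Summed copies were added before the ratio. No statistical test was run. Members and lists were chosen with earlier results of these data known. Every member could be named, and from the other lists the genes past the limit, the highest and the lowest gene, and the genotype genes. VHR1 was named outside this rule, after its value was seen. Alternatives were a pseudocount of 0.1 or 5 TPM, a minimum mean of 10 TPM or none, copies summed, median centring, rescaling without the 20 most abundant rows, protein-coding rows only, and a limit of 1.5-fold, alone or with median centring, added after the values were seen. The script that applies the limit was tested on simulated data, which bears on the code and not on these differences. Python 3.11.15, pandas 2.3.3, numpy 2.4.6, Biopython 1.88 and matplotlib 3.10.9 were used.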

Additional observations from a re-analysis of the deposited data

How the results depend on the processing

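SNZ1 and THI4 stayed past the limit upward and BIO2 downward under every other pseudocount, minimum and scaling tried, with log2 ratios of 1.86 to 2.04, 1.59 to 1.84 and -1.30 to -1.14. Over 4 alternatives, all 172 log2 ratios of the members stayed on their side of the limit and moved by at most 0.13. THI3 and RIB7, both close to 0, changed sign when the median gene was set to no change (0.09 and 0.06), and THI3 also without the 20 most abundant rows (0.00). Adding 5 TPM left 203 of all rows lower in place of 327. A limit of 1.5-fold gave 500 rows higher and 945 lower, and 4 vitamin genes each way. With median centring as well, 691 rows were higher and 672 lower, and 7 vitamin genes were higher and 3 lower. The medians ranged from 0.06 to 0.27 for thiamine, 0.31 to 0.49 for vitamin B6, -0.55 to -0.40 for biotin, 0.08 to 0.22 for NAD and -0.15 to -0.01 for riboflavin. THI72 fell below a minimum mean of 10 TPM. No paired analysis was possible because each medium has 1 library. Depth, replicate spread and the effects of the single medium components on these genes were not measured. The paper did add salts, trace metals, zinc or copper to YPD2, and measured carotenoid yield and cell mass.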
